A study of Mus musculus with 4 samples.

Results

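NRF2, encoded by Nfe2l2, is the transcription factor that switches on antioxidant and detoxification genes when cells meet oxidants or reactive chemicals. Under quiet conditions KEAP1 holds NRF2 and hands it to the CUL3 ubiquitin ligase for destruction. Modified KEAP1 cysteines release it, and NRF2 then binds antioxidant response elements together with small MAF proteins. T cells use the same enzymes to make glutathione and to keep thioredoxin and peroxiredoxins reduced while they respire and divide. The genes described here are the factor and its sensor (Nfe2l2, Keap1), the sulfiredoxin, thioredoxin and peroxiredoxin genes Srxn1, Txnrd1, Txn1 and Prdx1, the haem oxygenase gene Hmox1, and the glutathione synthesis genes Gclm and Gclc. The members were chosen by name with their array signals in GPR15+ and GPR15- cells already known, so their differences between these cells are a description, with no test. Each gene was read from the probe set that carries its symbol alone and has the highest mean signal over all arrays. Of the 9 genes, 8 have such a probe set, out of 18193 genes on the array that do, and all 8 also passed a filter on low signals, which 12241 genes passed. Prdx1 has none, because all 5 probe sets that name it also name Gm21399, and no level is given for it.

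The study compared CD4+ T cells from the lamina propria (the tissue layer beneath the gut lining) of the large intestine of mice, which did or did not express the homing receptor GPR15. All cells came from 129/B6 mixed mice heterozygous for a GFP knock-in at the Gpr15 locus, in which GFP fluorescence stands in for receptor expression. After collagenase digestion the GPR15+ cells (GFP+) and the GPR15- cells (GFP-) were sorted, and 2 Affymetrix arrays, numbered 1 and 2, were run for each population. The labels give no age, sex or number of mice per array, so the technical part of the spread between replicates is not known.

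The sort marker followed the labels. Gpr15 had signals of 619 and 729 on the GPR15+ arrays, against 146 and 162 on the GPR15- arrays. The genes of CD4 T cell identity, 7 of 8 measured, were above the low-signal filter on all 4 arrays and had a median difference of -0.16. Of them 0 were higher and 4 lower in GPR15+ cells without overlap (28.9% and 18.5% of all tested genes). Lat, an adaptor of the T cell receptor, differed most. It had signals of 355 and 397 in GPR15+ cells and 641 and 786 in GPR15- cells. Cd4 had signals of 540 and 533 in GPR15+ cells and 501 and 587 in GPR15- cells, although the series text once writes the GPR15- cells as lacking CD4. Replicate numbers also differed between themselves, since the X-inactivation transcript Xist had signals of 4313 and 4172 on the GPR15+ and GPR15- replicate 1 arrays and of 112 and 55.1 on the replicate 2 arrays. Differences within each replicate number are therefore given beside those of the group means. In bulk samples such as these, fewer cells of a type and less RNA per cell cannot be told apart.

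Srxn1 was the member that differed between the sorts by more than 2-fold. It encodes sulfiredoxin, which repairs peroxiredoxins whose active cysteine has been over-oxidised to sulfinic acid. Its signals were 264 and 263 in GPR15+ cells, against 61.5 and 70.9 in GPR15- cells. Both GPR15+ arrays stood far above both GPR15- arrays, and the GPR15+ arrays were nearly equal to each other. The means were 263 ± 0.822 in GPR15+ cells and 66.2 ± 6.62 in GPR15- cells (SD, n = 2 each), a ratio of 3.98. On the log2(signal + 16) scale, used for all differences below and understating those of dim genes, the difference was 1.77, with 1.85 for replicate 1 and 1.68 for replicate 2 taken alone. Among all tested genes, 28.9% were higher in GPR15+ cells without overlap between the groups, and 3.82% were so by at least 2-fold.

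The other probe sets of Srxn1 did not all give the same size. A second probe set had signals of 204 and 206 in GPR15+ cells and 96.6 and 66.5 in GPR15- cells, a difference of 1.20. Another had signals of 50.01 and 31.9 in GPR15+ cells and 22.3 and 21.4 in GPR15- cells, a difference of 0.57. In both, as in the chosen one, the groups did not overlap. The fourth had signals of 19.3 and 46.8 in GPR15+ cells, on either side of the 26.8 and 31.8 in GPR15- cells, and a difference of 0.06. With the mean of the 4 probe sets the difference of Srxn1 was 0.90.

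**Figure D1:**
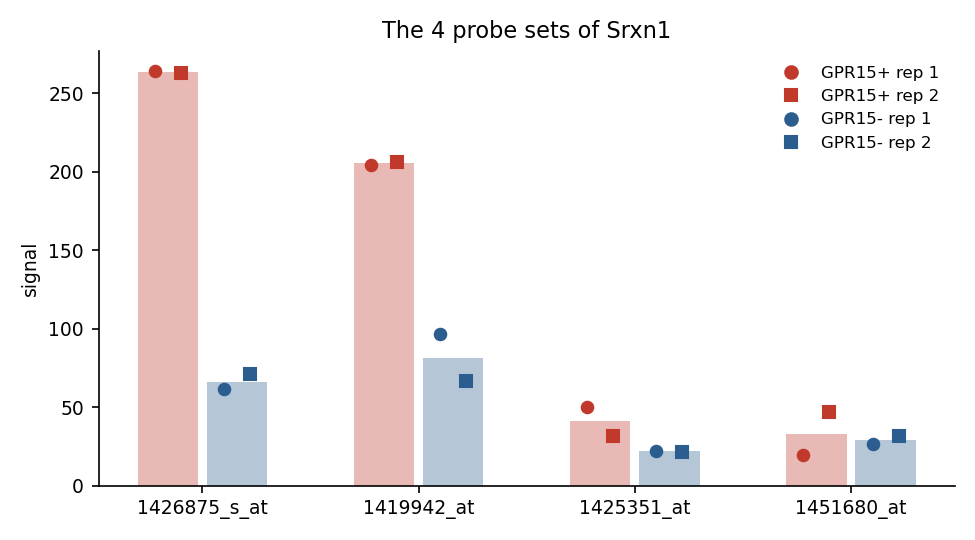
Signals of the 4 Srxn1 probe sets (y axis, linear from 0), with GPR15+ (red) left of GPR15- (blue). Bars are means of 2 arrays, circles are replicate 1 and squares replicate 2. The groups separate in the 3 probe sets on the left and overlap in the one on the right.

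The promoter of Srxn1 is shown because it is the member with the clear difference and because its letters hold sequences of the kind that NRF2 and its relatives bind. The stretch is chr2:152105274-152105573 on the + strand of GRCm38.p6, from RefSeq, and runs from 250 bases before to 50 bases after the gene's start. Capitals mark matches to TGAGTCA, to TGAGTCAGC and to TGACNNNGC, searched on both strands.
Srxn1: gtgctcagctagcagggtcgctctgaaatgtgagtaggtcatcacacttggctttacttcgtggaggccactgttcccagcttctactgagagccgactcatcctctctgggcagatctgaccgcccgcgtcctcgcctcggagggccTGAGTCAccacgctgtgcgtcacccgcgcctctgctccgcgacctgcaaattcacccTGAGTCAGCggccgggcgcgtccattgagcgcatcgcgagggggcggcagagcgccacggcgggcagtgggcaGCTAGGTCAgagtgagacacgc
TGAGTCA is the palindrome-like core known from AP-1 and NF-E2 sites. It begins 102 and 45 bases before the start, and the copy at 45 extends to TGAGTCAGC, which overlaps it. TGACNNNGC is the core of the antioxidant response element, and its match, read on the opposite strand, begins 28 bases after the start.

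TGACNNNGC and TGAGTCA are common in promoters, and TGAGTCAGC and TGACTCAGC are not. Of 32851 promoter windows of 300 bases, 12.4% hold TGACNNNGC and 5.20% hold TGAGTCA, while 0.414% hold TGAGTCAGC and 0.454% hold TGACTCAGC. There were 9 windows for 7 of the 9 members. Of these windows 5 hold TGACNNNGC, 2 hold TGAGTCA, 1 holds TGAGTCAGC (Srxn1) and 1 holds TGACTCAGC (Prdx1). The matched stretches of the other members are set side by side below, with 10 bases of flank and the match in capitals, from GRCm38.p6.
Nfe2l2 (chr2:75704885-75704913, - strand): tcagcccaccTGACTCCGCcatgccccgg
Txnrd1 (chr10:82859104-82859132, + strand): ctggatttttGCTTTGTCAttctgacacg
Prdx1 (chr4:116685352-116685378, + strand): aacgaggaaaTGACTCAaagggcagtg
Prdx1 (chr4:116685456-116685484, + strand): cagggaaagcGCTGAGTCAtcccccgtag
Gclm (chr3:122245413-122245441, + strand): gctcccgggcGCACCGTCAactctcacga
The match of Prdx1 that begins with GC is TGACTCAGC read on the opposite strand, which also fits TGACNNNGC. Nfe2l2, Txnrd1 (in window 2 of its 3) and Gclm hold TGACNNNGC and had differences of -0.33, 0.08 and -0.06. A match describes the letters only. The windows of Keap1 and Txn1 hold none of the 4 patterns, and Hmox1 and Gclc were not searched here.

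The factor and its sensor were close to level between the sorts. Nfe2l2 had signals of 176 and 222 in GPR15+ cells, against 235 and 271 in GPR15- cells, a difference of -0.33, with -0.39 within replicate 1 and -0.27 within replicate 2. Both GPR15+ arrays lay below both GPR15- arrays, as they did in 18.5% of all tested genes. A second Nfe2l2 probe set had signals of 180 and 218 in GPR15+ cells and 204 and 186 in GPR15- cells, with overlapping groups and a difference of 0.02. Keap1 had signals of 87.2 and 77.6 in GPR15+ cells and 84.0 and 57.7 in GPR15- cells, with overlap and a difference of 0.20. The difference of Keap1 turned to -0.07 when arrays were scaled to the same median, and to -0.03 without GPR15- replicate 2.

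In the thioredoxin pair the groups overlapped. Txn1, the small protein that reduces disulfides, had signals of 2024 and 1985 in GPR15+ cells and 2013 and 2195 in GPR15- cells. Its difference was -0.07, with 0.01 within replicate 1 and -0.14 within replicate 2. It was 0.01 under quantile or cyclic loess normalization and -0.39 under median scaling. Txnrd1, the cytosolic selenoenzyme that recharges thioredoxin with NADPH, had signals of 725 and 797 in GPR15+ cells and 706 and 728 in GPR15- cells. Its difference was 0.08, turning to -0.23 under median scaling. Further probe sets of Txn1 and Txnrd1 lay below the low-signal filter on all 4 arrays.

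Glutathione synthesis begins with glutamate-cysteine ligase, whose catalytic subunit is Gclc and whose modifier subunit is Gclm. Gclc had signals of 159 and 151 in GPR15+ cells and 152 and 135 in GPR15- cells, with overlap and a difference of 0.10. A second Gclc probe set went the other way, with signals of 63.9 and 37.5 in GPR15+ cells and 85.1 and 74.9 in GPR15- cells, a difference of -0.55 without overlap. The direction of Gclc therefore depends on the probe set, and it was also negative under median scaling, at -0.19.

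Gclm split the GPR15+ arrays. Its signals were 78.0 and 4.96 in GPR15+ cells, against 32.0 and 28.8 in GPR15- cells, so the GPR15+ arrays were the highest and the lowest of the 4. The difference of the means was -0.06, made of 0.97 within replicate 1 and -1.10 within replicate 2. A second Gclm probe set had signals of 46.1 and 13.7 in GPR15+ cells and 33.8 and 45.9 in GPR15- cells, again with GPR15+ replicate 2 lowest. Without GPR15+ replicate 1 the difference of Gclm was -1.15, and without GPR15+ replicate 2 it was 1.02.

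Hmox1 encodes the inducible haem oxygenase, which breaks haem into iron, carbon monoxide and biliverdin and is abundant in macrophages that clear red cells. Its signals were 74.0 and 79.1 in GPR15+ cells, against 29.0 and 90.8 in GPR15- cells. The GPR15+ arrays were nearly equal, and the GPR15- arrays lay on either side of them. The difference was 0.42, with 1.002 within replicate 1 and -0.17 within replicate 2. Without GPR15- replicate 1 it was -0.21, and without GPR15- replicate 2 it was 1.04.

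**Figure D2:**
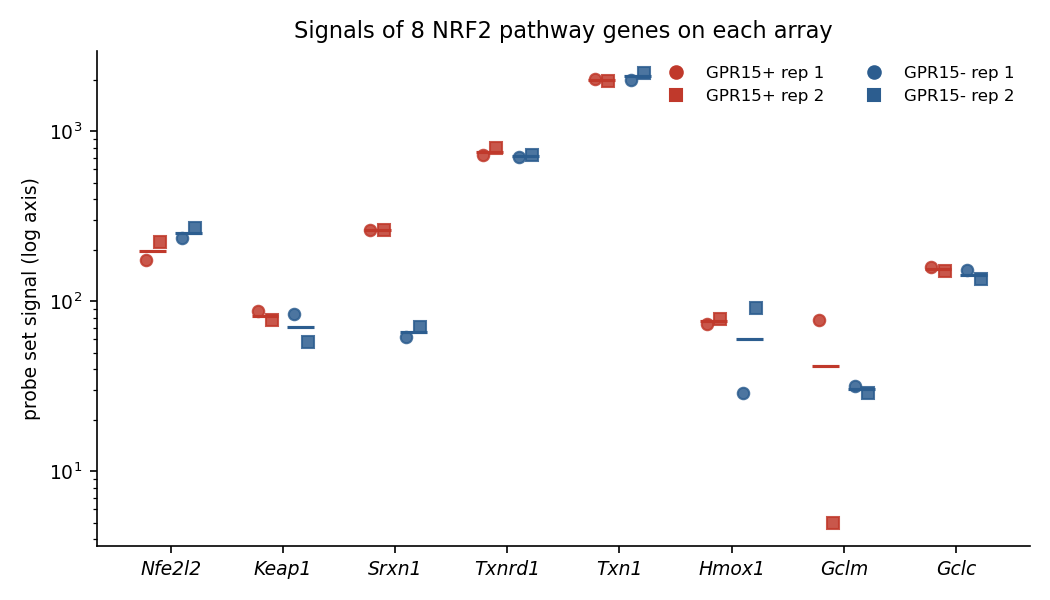
Signals of the 8 measured members (y axis, log scale) on each array, GPR15+ (red) left of GPR15- (blue). Circles are replicate 1, squares replicate 2 and lines the means of 2 arrays. Srxn1 shows the wide gap between groups, and Gclm the wide gap within GPR15+ cells.

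Taken by number, 5 of the 8 members had a positive and 3 a negative difference (57.9% of all tested genes had a positive one), and 7 of the 8 differed by less than 0.5 on the log2 scale. The groups did not overlap in 2 of the 8, namely Srxn1 (higher) and Nfe2l2 (lower), where 47.4% of all tested genes had groups that did not overlap. With 1 array fewer the groups separate more easily. Higher members numbered 2 without GPR15+ replicate 1, 4 without GPR15+ replicate 2 and 3 without either GPR15- array. Lower members numbered 3 without GPR15+ replicate 1 or without GPR15- replicate 1. The share of all tested genes was not counted with 1 array fewer, so these numbers have no background to be read against. The members' median difference was 0.09, beside 0.08 for all tested genes. Within replicate 1 the medians were 0.05 for the members and 0.08 for all genes, and within replicate 2 they were -0.01 and 0.07. The members' median was 0.20 without GPR15+ replicate 2, 0.02 without GPR15- replicate 1 and 0.01 without GPR15- replicate 2. Median scaling moved the median of all genes to -0.20. Relative to the median of all genes, Srxn1 differed by 1.69 as deposited, 1.69 after quantile normalization, 1.72 after cyclic loess and 1.68 after median scaling. Nfe2l2 differed by -0.41, -0.33, -0.32 and -0.43 in the same order.

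**Figure D3:**
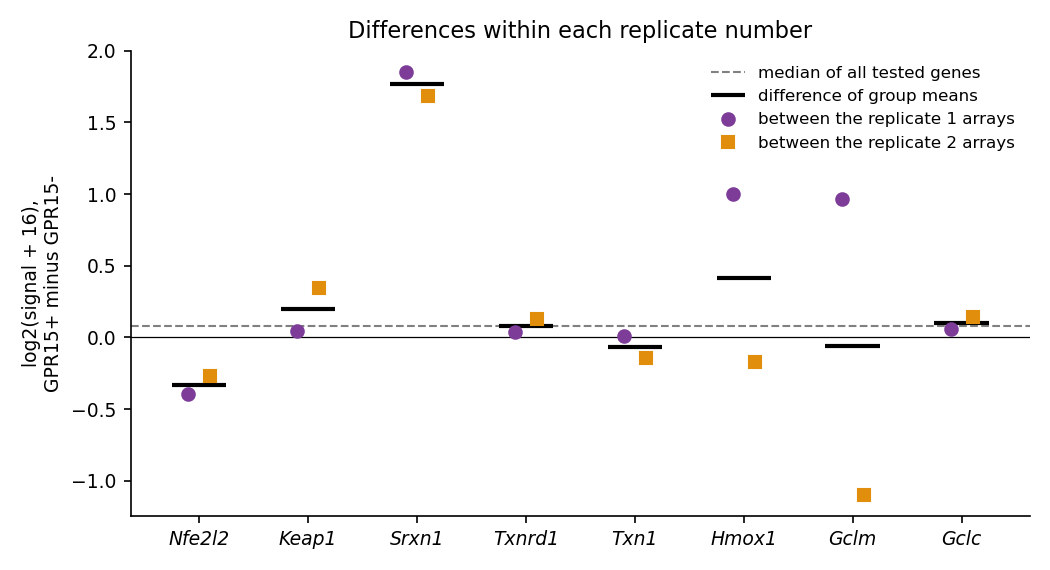
Difference of log2(signal + 16), GPR15+ minus GPR15-, for each member (y axis). Black lines are differences of group means, circles and squares those within replicate 1 and replicate 2, and the dashed line is the median of all tested genes at 0.08. Srxn1 stands at 1.77, and the 2 points lie on opposite sides of 0 for Txn1, Hmox1 and Gclm, narrowly so for Txn1.

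Markers of other cells differed between arrays and are set beside these values. The 10 epithelial markers summed to 2824 and 555 on the GPR15+ arrays, against 665 and 795 on the GPR15- arrays. Of them 9 were highest on GPR15+ replicate 1, as Gclm was, and 2 were higher in GPR15+ cells without overlap (28.9% of all tested genes). The 12 macrophage and monocyte markers summed to 303 and 1527 on the GPR15+ arrays, against 212 and 361 on the GPR15- arrays. All 12 were highest on GPR15+ replicate 2, and 7 passed the filter on low signals. Of the 12, 7 were higher in GPR15+ cells without overlap, namely Cd68, Csf1r, C1qa, C1qc, Itgam, Cd163 and Mrc1. C1qa, C1qc and Itgam did not pass the filter, and Csf1r reached it through GPR15+ cells alone, which forces a difference. The share of 28.9% is over genes that passed the filter, so it is not a like background for this count. On GPR15+ replicate 2 they ranged from 26.5 for Fcgr1, which was below the filter on all 4 arrays, to 700 for C1qb. The 8 dendritic cell markers summed to 776 and 1772 on the GPR15+ arrays, against 436 and 777 on the GPR15- arrays. The plasma cell gene Jchain was brighter, at 6219 and 4093 on the GPR15+ arrays and 3852 and 4455 on the GPR15- arrays. The next brightest B and plasma cell marker, Ms4a1, reached 98.6. The 6 stroma and endothelium markers summed to 602 and 905 on the GPR15+ arrays, against 418 and 993 on the GPR15- arrays. Their sum was lowest on GPR15- replicate 1 and highest on GPR15- replicate 2, as Hmox1 was. Mast cell and granulocyte markers summed to 288 and 456, against 237 and 169. Sums of CD8 and natural killer cell markers and of erythroid markers reached at most 91.5 and 35.3. The part of all these cells in the values of Srxn1, Gclm and Hmox1 was not tested.

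**Figure D4:**
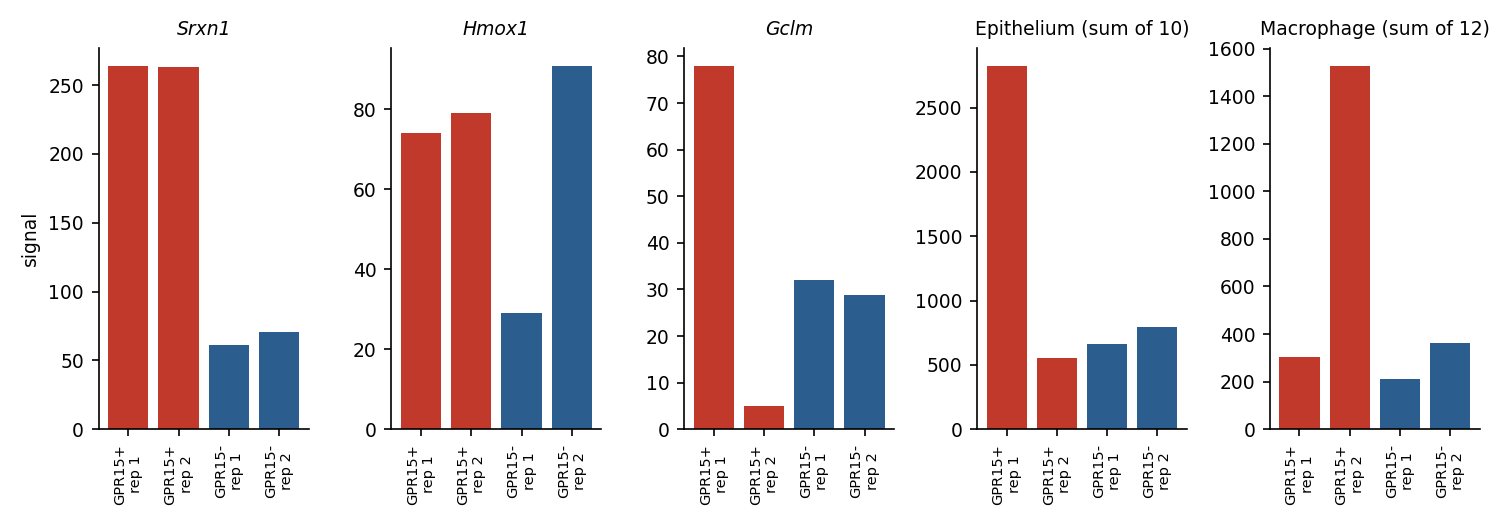
Signals of Srxn1, Hmox1 and Gclm and the summed signals of 10 epithelial and 12 macrophage markers on each array (y axes, linear from 0), GPR15+ (red) left of GPR15- (blue). The epithelial sum is highest on GPR15+ replicate 1, at 2824, and the macrophage sum on GPR15+ replicate 2, at 1527.

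Markers of regulatory T cells were on the same side as Srxn1. Of 8 such markers, 7 were higher in GPR15+ cells without overlap, where 28.9% of all tested genes were. The summed signals of the 8 were 17502 and 14978 in GPR15+ cells, against 9574 and 9105 in GPR15- cells. Their part in the Srxn1 difference was not tested. Genes of dissociation and heat stress, which tissue digestion can induce, had a median difference of -0.20 over 11 members. Of them 0 were higher and 4 lower without overlap (28.9% and 18.5% of all tested genes).

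By the closeness of their values over the 4 arrays, centred on each gene's mean, the genes most like Srxn1 among 12233 others were Adarb1, Itgb8 and Myo1d. Their distances on the log2 scale were 0.18, 0.22 and 0.23. Adarb1, an RNA-editing adenosine deaminase gene, had signals of 55.9 and 62.6 in GPR15+ cells and 7.67 and 7.50 in GPR15- cells, so it reached the filter in GPR15+ cells alone. Itgb8, an integrin chain that activates latent TGF-beta, had signals of 375 and 433 in GPR15+ cells and 86.4 and 102 in GPR15- cells. Myo1d, an unconventional myosin gene, had signals of 232 and 190 in GPR15+ cells and 54.4 and 54.6 in GPR15- cells. With 4 arrays this likeness is a description of these samples.

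The wider pathway was read from 105 further genes in 7 lists, of which 84 were tested with limma. After Benjamini-Hochberg adjustment over all tested genes, 0 of the 84 were higher and 0 lower, and 0 of 12241 genes in all (0% called). Without adjustment, a p under 0.05 was reached by 10 higher and 3 lower genes of the 84, where 10.2% of all tested genes were higher and 4.26% lower. Median scaling turned these counts to 3 higher and 12 lower, where it gave 4.22% higher and 13.5% lower of all tested genes. Of the 84, 48 had a positive and 36 a negative difference, 79 differed by less than 2-fold, and the median was 0.03, or -0.24 under median scaling. With 1 array left out, which leaves a single array in its group, the median ran from 0.04 to 0.14. Directions of small differences depend on the settings: of 29 further pathway genes named below with differences under 2-fold, 20 changed sign in at least 1 alternative. By at least 2-fold without overlap, 4 of the 84 were higher and 1 lower, where 3.82% of all tested genes were higher and 1.36% lower. Of the 4, Sesn2, Nqo1 and Abcc2 fell below 2-fold under quantile, cyclic loess and median scaling, and Msrb3 did not. Abcc2 and Chac1, both among the 10 above, reached the filter through GPR15+ cells alone, which forces a difference. Of all 12241 tested genes, 510 reached the filter in that way. Among genes that reached it in both groups, 3 of 82 were higher and 1 lower by at least 2-fold, where 2.69% of 11644 genes were higher and 1.21% lower. Without a threshold on size, 24 of the 84 were higher and 16 lower without overlap. Of all tested genes, 28.9% were higher and 18.5% lower. Abcc2 and Chac1 are also among the 24.

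The thioredoxin, peroxiredoxin and glutaredoxin list held Msrb3, the gene of largest difference among the 84. Of its 17 tested genes, 8 were higher and 4 lower without overlap (28.9% and 18.5% of all tested genes). An unadjusted limma p under 0.05 was reached by 4 higher genes and 1 lower gene (10.2% and 4.26% of all tested genes). Msrb3, a methionine sulfoxide reductase gene, had signals of 1183 and 829 in GPR15+ cells, against 275 and 146 in GPR15- cells, a difference of 2.21 (95% interval 1.32 to 3.11, limma adjusted p = 0.145). A second Msrb3 probe set differed by -0.05, with overlap, and the mean of its probe sets by 1.08. Sesn2, a stress-induced sestrin gene that promotes breakdown of KEAP1, had signals of 87.3 and 90.0 in GPR15+ cells, against 42.7 and 25.6 in GPR15- cells, a difference of 1.08 (0.45 to 1.71, limma adjusted p = 0.212). Its second probe set differed by -0.04, and the mean of its probe sets by 0.52.

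The brightest genes of that list were closer to level. Txnip, which binds and blocks thioredoxin, had signals of 2672 and 2322 in GPR15+ cells and 3558 and 3256 in GPR15- cells, a difference of -0.45 (-0.98 to 0.09). Sesn1 differed by 0.56 (0.00 to 1.12) and Txnl1 by -0.15 (-0.71 to 0.40). Prdx2, a peroxiredoxin that sulfiredoxin can repair, differed by -0.07 (-0.77 to 0.62). The limma adjusted p of these 4 genes ran from 0.345 for Sesn1 to 0.930 for Prdx2.

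Among 12 regulators and partners of NRF2, 2 were higher and 3 lower without overlap (28.9% and 18.5% of all tested genes), and the median difference was -0.05. Bach2, a repressor that competes for the same elements and holds T cells in a quiescent or memory state, had signals of 252 and 238 in GPR15+ cells, against 816 and 597 in GPR15- cells. The difference was -1.45 (-2.06 to -0.85, limma adjusted p = 0.149), and all 3 of its probe sets were lower, from -1.45 to -0.98. With a pseudocount of 64, Bach2 and Msrb3 passed the threshold, at -1.30 and 1.98 (limma adjusted p = 0.0193 and 0.0123). Its relative Bach1, the repressor of Hmox1, differed by 0.22 (-0.35 to 0.80). The small MAF gene Mafg differed by 0.23 (-0.42 to 0.88), Cul3 by -0.33 (-0.88 to 0.21), and the autophagy adaptor gene Sqstm1, whose product sequesters KEAP1, by 0.04 (-0.51 to 0.60). The coactivator gene Crebbp and the kinase gene Gsk3b, which marks NRF2 for breakdown, differed by 0.00 (-0.52 to 0.53) and -0.11 (-0.63 to 0.40).

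Genes of glutathione synthesis, recycling and use went both ways, with a median of 0.03. Among 20 tested, 5 were higher and 5 lower without overlap (28.9% and 18.5% of all tested genes), 0 of them by 2-fold or more. Chac1 is among the 5 higher. The cystine transporter chains Slc7a11 and Slc3a2 differed by 0.04 (-0.58 to 0.67) and -0.33 (-0.88 to 0.22). Glutathione reductase, Gsr, differed by -0.11 (-0.62 to 0.40), and the glutathione peroxidases Gpx1 and Gpx4 by 0.06 (-0.70 to 0.82) and 0.31 (-0.53 to 1.15). The transferase gene Gstp1 differed by -0.01 (-0.54 to 0.52).

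Detoxification genes had a median of 0.20 over 12 tested. Without overlap, 5 were higher, Abcc2 among them, and 2 lower (28.9% and 18.5% of all tested genes). Nqo1, a quinone reductase gene that both NRF2 and the aryl hydrocarbon receptor induce, had signals of 61.1 and 108 in GPR15+ cells, against 21.1 and 40.9 in GPR15- cells. The difference was 1.09 (0.23 to 1.94, limma adjusted p = 0.275), and the values inside replicates 1 and 2 were 1.05 and 1.12. Abcc2, an efflux pump for glutathione conjugates, had signals of 49.2 and 56.9 in GPR15+ cells, against 22.7 and 8.79 in GPR15- cells, both below the filter at 29.5. Its difference of 1.16 is given as a description, since it passed the filter through the group where it is high. The brighter genes Akr1a1, Ugdh and Abcc5 differed by 0.22, 0.07 and -0.03.

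The remaining lists had medians close to 0, with members on both sides. Among 10 genes of NADPH supply the median was -0.05, with a range from -0.78 to 0.87. Without overlap, 2 were higher and 1 lower (28.9% and 18.5% of all tested genes). Mthfd2, a mitochondrial folate enzyme gene, differed by -0.78 (-1.34 to -0.21, limma adjusted p = 0.260). Nadk, the cytosolic NAD kinase gene, named after its values were seen, differed by 0.74 (0.17 to 1.32, limma adjusted p = 0.272), Idh1 by 0.31 and Nnt by -0.08. Among 4 superoxide dismutase and catalase genes the median was -0.07, and Sod1, Cat and Sod2 differed by -0.14, -0.29 and 0.05. Among 9 genes of haem and iron handling the median was 0.13, with 2 higher and 0 lower without overlap, beside the same shares. Tfrc, the transferrin receptor gene, had signals of 3992 and 3285 in GPR15+ cells, against 2295 and 2424 in GPR15- cells, a difference of 0.62 (0.07 to 1.17, limma adjusted p = 0.318). The ferritin heavy chain gene Fth1 differed by 0.13 and Ireb2 by -0.07.

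**Figure D5:**
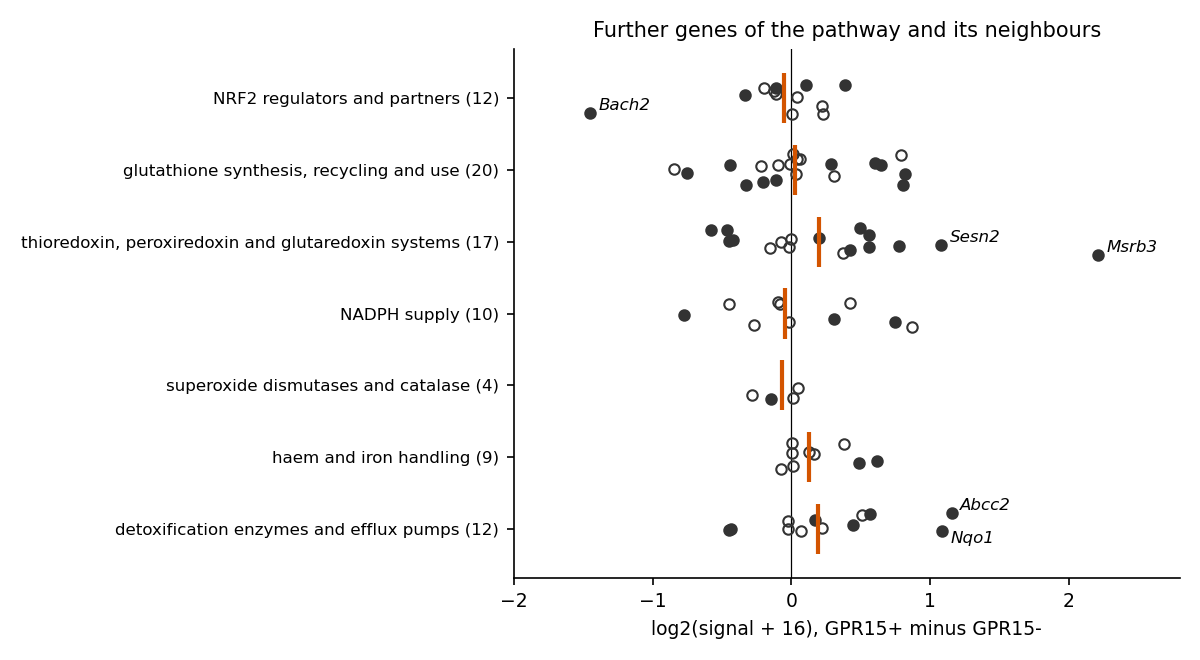
Difference of log2(signal + 16), GPR15+ minus GPR15- (x axis), for 84 tested genes that are not among the 9, by list with the number tested. Filled points have groups that do not overlap, open points overlap, and orange lines are list medians. Named genes differ by at least 2-fold without overlap: Msrb3 at 2.21, Abcc2 at 1.16, Nqo1 at 1.09, Sesn2 at 1.08 and Bach2 at -1.45.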

How the data were processed

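The authors deposited 1 linear intensity per probe set for each of 4 arrays, used here as given. The software behind them is not given in the sources used here. All 4 arrays had the same mean, 150.0, once 2% of values were trimmed from both ends. Their medians differed by group, at 46.0 and 45.2 on the GPR15+ arrays and 37.0 and 36.1 on the GPR15- arrays. The number of arrays, 2 a group, limits the precision. Groups and replicate numbers come from the titles.

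Probe sets were named through GEO's platform annotation, which can be old: of 45101, 34945 had 1 symbol, 932 several and 9224, with 64 controls, none here. Of the first, 34741 gene IDs matched the RefSeq table. Signals were taken to log2 after adding 16. Genes whose probe set mean reached 29.5, the 40th percentile over probe sets other than controls, were tested two-sided with limma 3.58.1 in R 4.3.3, group being the only term, with Benjamini-Hochberg adjustment over 12241 genes. Residual degrees of freedom were 2 and prior ones 3.55. The fit was also run on simulated data with independent errors drawn from its own variance model. That run cannot show how the fit does on arrays that deviate together.

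The members, lists and tests were chosen with earlier results of these data known. Named genes are all members, the check genes, the 3 brightest tested genes of each list, list members of at least 2-fold without overlap, a fixed set, and the 3 genes nearest to the member of largest difference. The second probe sets and promoter patterns were chosen after values were seen. A further 15 listed genes were left out as dim and 6 had no probe set of their own. Alternatives changed the normalization, pseudocount, filter, variance model, probe set rule and replicate block, and left out each array.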

Additional observations from a re-analysis of the deposited data

How the results depend on the processing

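With 2 arrays a group, limma's count of called genes depended on the settings. It was 0 as reported, where an unadjusted p under 0.05 gave 1247 higher and 521 lower genes. It was 171 with a pseudocount of 64, 43 with a filter at the 60th percentile, 243 with trend and robust variance, 6 with the mean of all probe sets and 4 with probe sets chosen and filtered by mean log2 signal, an alternative added after seeing the data. It was 0 without any 1 array. Called pathway genes were 2, Bach2 and Msrb3, with the pseudocount of 64 and with trend and robust variance, and 0 in the other alternatives. Members higher without overlap were 2 under quantile and cyclic loess normalization and 2 to 4 without 1 array, against 1 as reported. Members lower without overlap were 4 under median scaling, 0 with the mean of probe sets and 1 to 3 without 1 array, against 1. With 1 array left out, groups separate more easily. The shares of all tested genes without overlap were not counted under any alternative, so these member counts have no background. The members' median was -0.21 under median scaling, 0.01 with the mean of probe sets and 0.009 to 0.203 without 1 array. The cause of these shifts was otherwise not tested. Unadjusted counts split into 516 higher and 1647 lower under median scaling, 812 and 652 under quantile normalization and 820 and 644 under cyclic loess. Srxn1 kept a positive difference in all 15 alternatives, from 0.90 to 1.98, and Nfe2l2 a negative one, from -0.63 to -0.15. Same-numbered arrays deviated together with a correlation of 0.197 over genes, and with the replicate number as a block 0 genes and 0 pathway genes were called. Gpr15, with a difference of 2.02 and a limma adjusted p of 0.0846 as reported, passed with the pseudocount of 64, the filter at the 60th percentile and trend and robust variance, and its adjusted p ran up to 0.335. Gpr15, Msrb3, Sesn2, Bach2 and Nqo1 kept their direction in every alternative. Abcc2 did so where tested, but its passing of the filter through GPR15+ cells alone forces this. Under quantile, cyclic loess and median scaling, Msrb3 and Bach2 stayed beyond 2-fold, and Sesn2, Nqo1 and Abcc2 fell below it. In that order Sesn2 differed by 0.92, 0.88 and 0.84, and Nqo1 by 0.89, 0.88 and 0.85. Abcc2 differed by 0.97, 0.92 and 0.96. Signals near 30 and below, as for Gclm, leave little to rank.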
